A study of Mus musculus with 9 samples.

Results

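AP-1 is the family of dimeric transcription factors built from JUN and FOS proteins, and 9 of its genes were described here in Eµ-Myc lymphoma cells treated with inhibitors of the BET bromodomain proteins. The 9 genes were Jun, Junb and Jund, then Fos, Fosb, Fosl1 and Fosl2, and the related Batf and Batf3. They were chosen by name, as the rows of the raw count table whose Ensembl identifiers carry these symbols in GENCODE M21, and all 9 were found among 43629 genes. JQ1 was used at 1 µM and RG6146 at 2.5 µM, both BET inhibitors, beside their solvent DMSO as the control. Each group had 3 libraries, collected after 2 h. All 9 libraries came from clone 4242 of a mouse B-cell lymphoma, in which a Myc transgene is driven by the immunoglobulin heavy chain enhancer, so every group carries the transgene. The labels call the triplicates biological, and p-values measure the spread between cultures of this single clone. RNA was read as tags from the 3′ ends of transcripts, so counts do not scale with transcript length. Levels in CPM, gene counts scaled to the library's total, can therefore be set side by side between genes. In RNA from whole cultures, fewer cells that express a gene and less RNA per cell cannot be told apart.

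JUN and FOS proteins join through a leucine zipper and bind DNA through the basic stretch beside it. JUN proteins pair with themselves or with FOS proteins, whereas FOS proteins need a JUN partner, and BATF proteins pair with JUN proteins and, in lymphocytes, bind beside IRF4 or IRF8. Many of these genes are immediate early genes, transcribed within minutes of a growth factor or stress signal through factors already bound at their promoters.

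Of the 9 genes, the 3 JUN genes were higher after both compounds, and the FOS and BATF genes were nearly silent in all 3 groups. Jund was 3.20 times its DMSO level under JQ1 and 2.87 times under RG6146. Jun was 2.997 times its DMSO level under JQ1 and 2.65 times under RG6146. Junb was 2.09 times its DMSO level under JQ1 and 1.88 times under RG6146. Fosl2 was the only FOS or BATF gene with enough counts to test, and it passed no test.

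The coding transcript of each of the 3 JUN genes has a single exon. Jun (ENSMUSG00000052684) lies at chr4:95049034-95052222 on the minus strand, Junb (ENSMUSG00000052837) at chr8:84974484-84978718 on the minus strand, and Jund (ENSMUSG00000071076) at chr8:70698949-70700616 on the plus strand, in mm10 and GENCODE M21. The 250 bases before the RefSeq start of Jun and Junb, as promoters of members that moved together, are shown here beside those of Fos, which did not have enough counts to test. They are from RefSeq on GRCm38.p6, read 5′ to 3′ on the gene's own strand, at chr4:95052223-95052472 for Jun (minus), chr8:84978749-84978998 for Junb (minus) and chr12:85473640-85473889 for Fos (plus). Capitals mark matches to the searched motifs.

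Jun: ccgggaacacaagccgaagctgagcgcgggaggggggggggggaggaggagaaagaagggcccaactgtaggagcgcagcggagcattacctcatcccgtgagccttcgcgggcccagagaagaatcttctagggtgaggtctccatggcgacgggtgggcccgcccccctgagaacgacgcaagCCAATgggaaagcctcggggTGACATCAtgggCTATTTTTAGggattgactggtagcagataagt
Junb: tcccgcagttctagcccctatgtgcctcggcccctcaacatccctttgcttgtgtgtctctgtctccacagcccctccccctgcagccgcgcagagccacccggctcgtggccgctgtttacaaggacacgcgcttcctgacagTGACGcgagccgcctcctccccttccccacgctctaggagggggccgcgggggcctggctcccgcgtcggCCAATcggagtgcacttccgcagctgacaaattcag
Fos: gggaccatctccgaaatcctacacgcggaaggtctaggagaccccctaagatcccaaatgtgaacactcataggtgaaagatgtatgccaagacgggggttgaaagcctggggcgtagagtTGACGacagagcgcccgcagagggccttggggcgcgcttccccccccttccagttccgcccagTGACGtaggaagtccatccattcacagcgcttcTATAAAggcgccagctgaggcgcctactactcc

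Counted back from the start as position -1, the Jun window holds a CCAAT box at -65 to -61, the AP-1 site variant TGACATCA at -45 to -38 and a match to the MEF2 consensus, CTATTTTTAG, at -33 to -24. The Junb window holds TGACG, a part of the cyclic AMP response element, at -106 to -102 and a CCAAT box at -36 to -32. In the Fos window TGACG occurs at -129 to -125 and at -66 to -62, and TATAAA, the TATA box, at -33 to -28. Both strands were searched, and the 3 windows hold neither TGACTCA, the AP-1 consensus, nor the full element TGACGTCA, of which TGACG is a part. Among 32851 RefSeq windows of the same length, the MEF2 consensus was in 2.92%, TGACATCA in 2.93%, TGACG in 17.8%, CCAAT in 33.8%, TATAAA in 12.4%, TGACTCA in 4.46% and TGACGTCA in 1.55%. The motifs were picked with the sequences in view, and a match is a description of letters, not of a bound factor. RefSeq's Junb start lies 30 bases before that of GENCODE M21, and its Jund start lies 1210 bases before, so the Jund window is not shown. The tables held a window for 8 of the 9 genes, the other being Fosl1.

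The libraries held 3964732 to 5031717 gene counts under JQ1, 3947240 to 4609612 under RG6146 and 3410161 to 5003725 under DMSO. As a check of BET inhibition, Hexim1, a gene widely used as a marker of it, rose by a log2 fold change of 1.55 ± 0.07 under JQ1 (adjusted p = 6.5e-11) and 1.46 ± 0.07 under RG6146 (adjusted p = 1.2e-10, edgeR quasi-likelihood test). Neither compound removes a gene, so no targeted transcript could check the labels. All 12 B-cell markers had counts, and their summed level was 464 ± 6.09 CPM under JQ1, 486 ± 33.2 CPM under RG6146 and 820 ± 45.9 CPM under DMSO (SD, n = 3 each; exact two-sided permutation p = 0.1 for each compound, the smallest that 3 against 3 allows). Ebf1 was the largest part, at 210 CPM on average. Spib, the next largest, overlapped between groups, with 498, 371 and 394 counts under JQ1. It had 372, 377 and 394 under RG6146 and 520, 276 and 331 under DMSO. Igll1, Vpreb1 and Vpreb2 averaged only 0.37, 1.95 and 0.058 CPM. Stromal and endothelial markers, 8 of 8 with counts, summed to 99.8 ± 1.24 CPM under JQ1, 107 ± 3.87 CPM under RG6146 and 136 ± 6.42 CPM under DMSO (SD, n = 3 each; exact permutation p = 0.1 for each compound). Nearly all of this sum came from Vim and Pecam1, which blood cells also express, and the other 6 markers had at most 3 counts in a library. Markers of T and NK cells had counts for 9 of 11, with Gzmb and Ncr1 at 0. They summed to 5.36 ± 1.82 CPM under JQ1, 7.37 ± 1.19 CPM under RG6146 and 11.1 ± 1.73 CPM under DMSO (SD, n = 3 each). All treated libraries lay below the DMSO libraries (exact permutation p = 0.1 for each compound). Dendritic cell markers (5 of 6, Itgax at 0) averaged 3.78 CPM under JQ1, 3.26 CPM under RG6146 and 3.48 CPM under DMSO, and those of erythroid cells (6 of 6) 6.30 CPM under JQ1, 4.67 CPM under RG6146 and 4.96 CPM under DMSO.

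Jund is the JUN member that is expressed in many resting cells. It was at 243, 229 and 236 CPM in the JQ1 libraries and at 198, 184 and 253 CPM in the RG6146 libraries, against 71.5, 76.5 and 73.4 CPM in the DMSO libraries. These levels are scaled by TMM, a factor that corrects for differences in library makeup. Every treated library lay above every DMSO library, and the RG6146 libraries spread more than the others. The mean was 236 ± 7.26 CPM under JQ1, 212 ± 36.5 CPM under RG6146 and 73.8 ± 2.53 CPM under DMSO (SD, n = 3 each). The log2 fold change was 1.68 ± 0.10 under JQ1 (SE, 95% interval 1.47 to 1.89, adjusted p = 2.0e-09) and 1.52 ± 0.10 under RG6146 (1.31 to 1.74, adjusted p = 8.2e-09), by edgeR's quasi-likelihood test with Benjamini-Hochberg adjustment. Ordered from the largest increase down, Jund stood at place 114 of 11002 tested genes under JQ1 and at place 140 under RG6146.

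Jun encodes c-Jun, the first member described and the main substrate that gave the JNK kinases their name. It was at 57.2, 72.6 and 65.4 CPM in the JQ1 libraries and at 58.6, 64.0 and 50.2 CPM in the RG6146 libraries, against 22.2, 18.5 and 24.2 CPM in the DMSO libraries. The lowest treated library was above all DMSO libraries. The mean was 65.1 ± 7.68 CPM under JQ1, 57.6 ± 6.96 CPM under RG6146 and 21.6 ± 2.91 CPM under DMSO (SD, n = 3 each). Its log2 fold change was 1.58 ± 0.13 under JQ1 (SE, 95% interval 1.31 to 1.86, adjusted p = 9.1e-08) and 1.41 ± 0.13 under RG6146 (1.13 to 1.68, adjusted p = 4.3e-07). It stood at place 140 under JQ1 and at place 166 under RG6146.

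Junb, a member that often opposes c-Jun in cell growth, was at 111, 146 and 125 CPM in the JQ1 libraries and at 99.4, 116 and 128 CPM in the RG6146 libraries, against 65.3, 56.9 and 60.9 CPM in the DMSO libraries. The treated and DMSO libraries did not overlap. The mean was 127 ± 17.8 CPM under JQ1, 115 ± 14.5 CPM under RG6146 and 61.0 ± 4.20 CPM under DMSO (SD, n = 3 each). Its log2 fold change was the smallest of the 3, 1.06 ± 0.11 under JQ1 (SE, 95% interval 0.82 to 1.30, adjusted p = 2.4e-06) and 0.91 ± 0.11 under RG6146 (0.67 to 1.15, adjusted p = 1.4e-05). It stood at place 344 under JQ1 and at place 445 under RG6146.

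**Figure D1:**
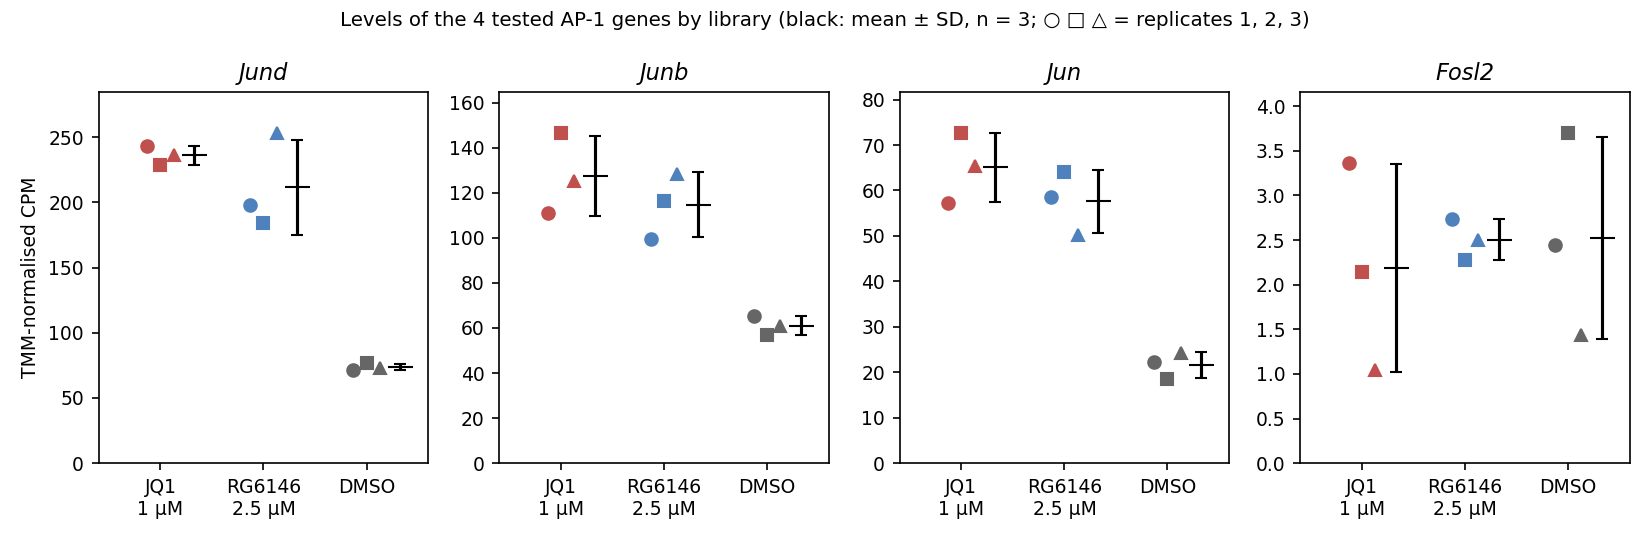
TMM-normalised CPM (vertical axes, each from 0) of Jund, Jun, Junb and Fosl2 in each library of the JQ1, RG6146 and DMSO groups, with the mean ± SD in black (n = 3). For the 3 JUN genes every treated library lies above every DMSO library, whereas the Fosl2 libraries of the 3 groups overlap at 1.05 to 3.70 CPM.

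The order of the JUN genes by level was Jund, Junb and Jun in all 3 groups. Jund and Junb were apart by more than their spread under both compounds (184 CPM or more against 146 CPM or less) and also under DMSO, where 71.5 to 76.5 CPM stood against 56.9 to 65.3 CPM. Jun lay below Junb without overlap in each group. Among all tested genes Jund was at the 94.2 percentile of level under JQ1, the 93.7 percentile under RG6146 and the 80.9 percentile under DMSO. Jun was at the 77.9 percentile under JQ1, the 75.7 percentile under RG6146 and the 52.0 percentile under DMSO.

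Fosl2 encodes Fra-2, a FOS protein that lacks the strong activation domain of c-Fos. It had 16, 9 and 4 raw counts in the JQ1 libraries, 12, 9 and 11 in the RG6146 libraries and 13, 13 and 6 in the DMSO libraries. The groups overlapped fully. Its mean level was 2.18 ± 1.16 CPM under JQ1, 2.50 ± 0.230 CPM under RG6146 and 2.53 ± 1.13 CPM under DMSO (SD, n = 3 each), at the 4.86 percentile of level among tested genes under JQ1, the 6.60 percentile under RG6146 and the 5.03 percentile under DMSO. The log2 fold change was -0.15 ± 0.46 under JQ1 (95% interval -1.12 to 0.82, adjusted p = 0.845) and 0.02 ± 0.45 under RG6146 (-0.94 to 0.97, adjusted p = 0.986). Under RG6146 the interval included a change as large as that of Junb (0.91), and under JQ1 the upper bound of Fosl2 lay below the change of Junb (1.06).

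The 5 remaining genes had too few counts to test. Fos, which encodes c-Fos, had 5, 9 and 4 raw counts in the JQ1 libraries and 5, 11 and 5 in the RG6146 libraries, against 4, 5 and 1 in the DMSO libraries. The ranges met at 4 and 5 counts. Over the 3 libraries of a group Fos summed to 1.35 CPM under JQ1 (95% Poisson interval 0.801 to 2.14), 1.61 CPM under RG6146 (0.996 to 2.46) and 0.811 CPM under DMSO (0.389 to 1.49), and these intervals cover counting error only. When genes of any count were kept, the log2 fold change of Fos was 0.87 ± 0.68 under JQ1 (adjusted p = 0.514) and 1.10 ± 0.66 under RG6146 (adjusted p = 0.371), in an edgeR quasi-likelihood fit to 23655 genes. That fit gave far smaller p-values at a like SE. For Jun under JQ1 its unadjusted quasi-likelihood p was 1.2e-39 (SE 0.12), against 5.6e-10 (SE 0.13) with the filter. Its p-values are therefore less strict.

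Fosb, which encodes a close relative of c-Fos, had 1, 2 and 4 raw counts in the JQ1 libraries and 2, 2 and 2 in the RG6146 libraries, against 1, 1 and 0 in the DMSO libraries. The JQ1 and DMSO libraries met at 1 count, and those of RG6146 lay above DMSO by 1 or 2 counts. Fosl1, which encodes Fra-1, had 3, 0 and 3 raw counts in the JQ1 libraries and 3, 1 and 3 in the RG6146 libraries, against 0, 3 and 2 in the DMSO libraries. Neither reached 5 counts in any library. In the fit without the filter the adjusted p of Fosb was 0.509 under JQ1 and 0.612 under RG6146, and that of Fosl1 was 0.965 under JQ1 and 0.884 under RG6146.

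Batf encodes a small AP-1 protein without an activation domain, known for its part in T-helper cells and in antibody class switching. It had no count in the JQ1 libraries and 0, 0 and 2 counts in the RG6146 libraries, against 3, 0 and 5 counts in the DMSO libraries. One DMSO library had none either, so the groups overlapped. For the 0 of JQ1, 3 counts over the group would be 0.225 CPM, and the exact 95% Poisson upper limit was 0.277 CPM. Under DMSO the level was 0.649 CPM (95% Poisson interval 0.280 to 1.28). In the fit without the filter, whose p-values are less strict, the adjusted p of Batf was 0.0636 under JQ1 and 0.479 under RG6146. Batf3, which is needed for cross-presenting dendritic cells, had no count in any of the 9 libraries. Over all of them 3 counts would be 0.0775 CPM, and the exact 95% Poisson upper limit was 0.0953 CPM.

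**Figure D2:**
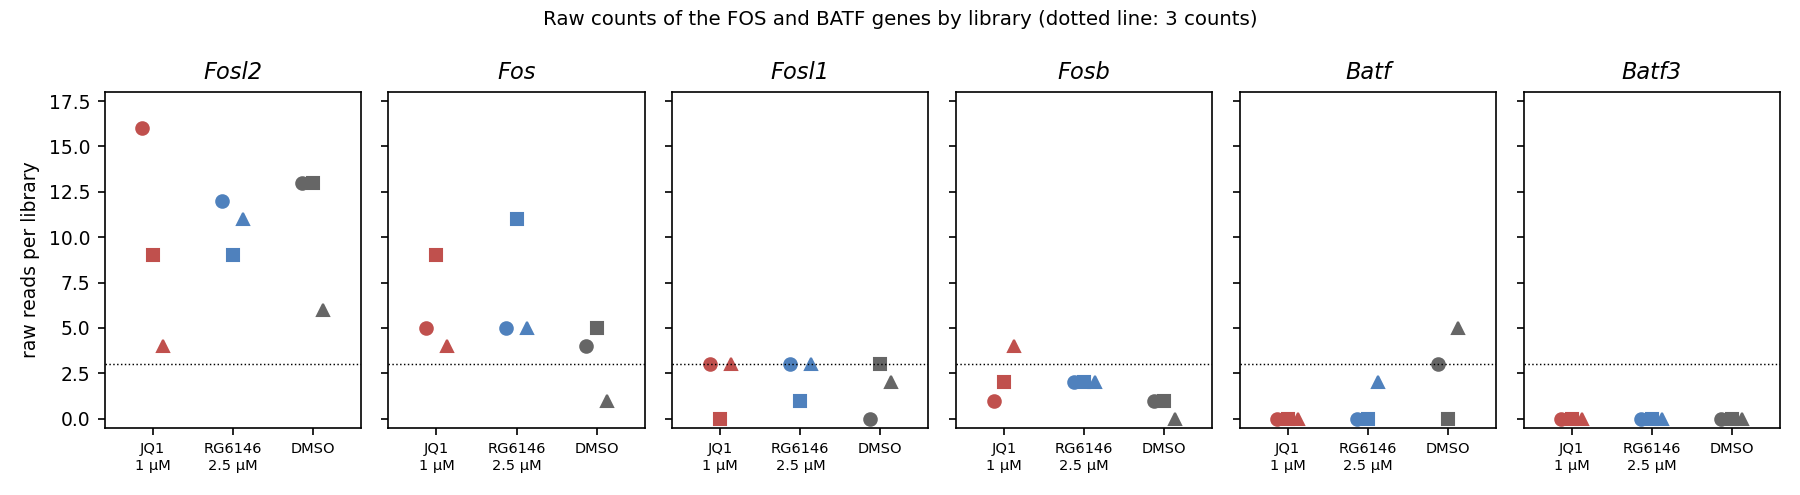
Raw reads per library (vertical axis) of Fos, Fosb, Fosl1, Fosl2, Batf and Batf3 in the JQ1, RG6146 and DMSO libraries, with a dotted line at 3 counts. Fosl2 reaches 16 counts and Fos 11, and Batf3 stays at 0 throughout.

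Summed over the family, the JUN genes had 12414 counts in the 9 libraries, the FOS genes 175 and the BATF genes 10. The JUN sum was 5471 counts under JQ1, 4903 under RG6146 and 2040 under DMSO. The FOS sum was 60 counts under JQ1, 66 under RG6146 and 49 under DMSO. Counted by tags, nearly all AP-1 transcripts of these 9 genes came from the JUN genes in all groups.

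In the comparison of JQ1 with DMSO, 3 of the 4 tested members were called higher and 0 lower, where 13.6% of the 11002 tested genes were called higher, 15.4% lower and 28.9% in either direction. In that of RG6146 with DMSO, again 3 were called higher and 0 lower, against 12.5% higher, 13.5% lower and 26% in either direction among all tested genes. The count of 0 lower was also 0 at an unadjusted p under 0.05 and with DESeq2 in both comparisons. Treated libraries lay wholly above the DMSO libraries for the 3 JUN genes, as for 20.6% of all tested genes under JQ1 and 20.1% under RG6146. Both comparisons share the DMSO libraries, so that their likeness for a gene is not independent. The members were chosen with earlier results of these data known, so their counts beside those of all genes are a description only.

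**Figure D3:**
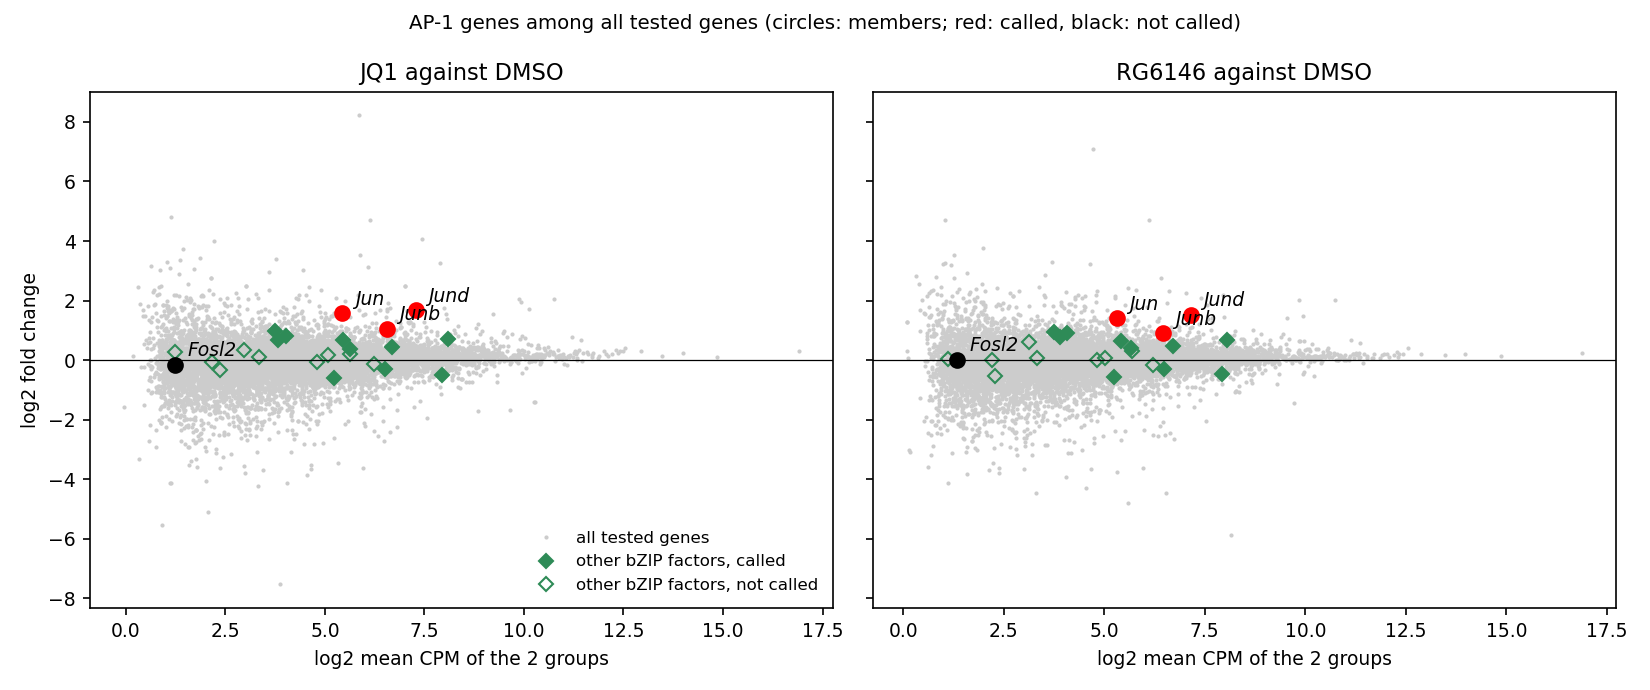
Log2 fold change (vertical axis) against the log2 mean CPM of both groups (horizontal axis) for all tested genes (grey), other bZIP factors (green diamonds, filled where called) and AP-1 members (circles, red where called), for JQ1 against DMSO (left) and RG6146 against DMSO (right). Jund, Jun and Junb lie above 0.9 in both panels and Fosl2 lies near 0; 1 gene without counts under RG6146 has no finite fold change there and is not drawn.

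Between the compounds no member differed past the threshold, at doses that were not matched (2.5 µM RG6146 and 1 µM JQ1). The log2 fold change of RG6146 against JQ1 was -0.16 ± 0.10 for Jund (95% interval -0.36 to 0.05), -0.18 ± 0.12 for Jun (-0.43 to 0.08), -0.15 ± 0.11 for Junb (-0.38 to 0.08) and 0.16 ± 0.46 for Fosl2 (-0.80 to 1.13). All 4 had an adjusted p of 0.999 by edgeR's quasi-likelihood test, and the RG6146 and JQ1 libraries overlapped for each. The intervals of the JUN genes leave room for a level under RG6146 that is lower by up to 0.43 on the log2 scale. Among the 4, 0 were called by edgeR, 0 had an unadjusted p under 0.05 and 0 were called by DESeq2, while 0.00909% of all tested genes were called by edgeR.

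**Figure D4:**
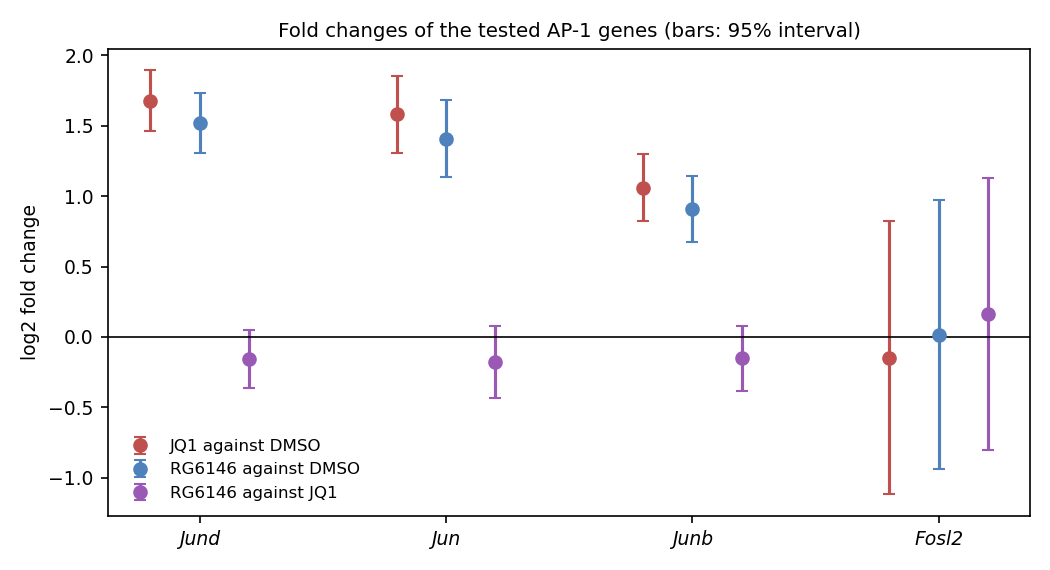
Log2 fold changes (points) with 95% intervals (bars) of Jund, Jun, Junb and Fosl2 for JQ1 against DMSO, RG6146 against DMSO and RG6146 against JQ1. The intervals of the 3 JUN genes lie above 0 in both comparisons with DMSO, and all intervals of RG6146 against JQ1 include 0.

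The JUN transcripts were also described by their shares. Jund took 55.2 ± 4.01% of the JUN counts under JQ1, 54.9 ± 4.12% under RG6146 and 47.2 ± 2.82% under DMSO (SD, n = 3 each). Junb took 29.6 ± 2.87% under JQ1, 29.9 ± 2.03% under RG6146 and 39.0 ± 1.87% under DMSO. The share of Jun was 15.1 ± 1.16% under JQ1, 15.2 ± 3.15% under RG6146 and 13.8 ± 1.56% under DMSO. The share of Jund was thus higher, and that of Junb lower, in both treated groups, and the test was made on ratios within libraries.

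A ratio of raw counts within a library does not depend on how libraries are scaled. The log2 ratio of Jund to Junb was 1.13, 0.65 and 0.92 in the JQ1 libraries and 1.00, 0.66 and 0.98 in the RG6146 libraries, against 0.13, 0.43 and 0.27 in the DMSO libraries. The treated libraries were all above the DMSO libraries, by 0.62 under JQ1 and 0.60 under RG6146 on average. The exact two-sided permutation p was 0.1 for each, the smallest that 3 against 3 allows, and 0.2 after Benjamini-Hochberg adjustment over the 6 ratio comparisons.

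The log2 ratio of Jun to Junb was -0.96, -1.01 and -0.94 in the JQ1 libraries and -0.76, -0.86 and -1.35 in the RG6146 libraries, against -1.56, -1.62 and -1.33 in the DMSO libraries. The JQ1 libraries were above all DMSO libraries, whereas 1 RG6146 library lay inside the DMSO range. The mean difference was 0.53 for JQ1 (exact permutation p = 0.1, adjusted 0.2) and 0.51 for RG6146 (exact permutation p = 0.2, adjusted 0.3). The ratio of Jund to Jun differed by 0.09 for each compound, with overlapping libraries (exact permutation p = 0.6 for JQ1 and 0.8 for RG6146). Leaving out 1 library gave -0.023 to 0.22 for JQ1 and -0.14 to 0.27 for RG6146, so its sign was not fixed. It was negative without JQ1 replicate 1 or DMSO replicate 3 for JQ1, and without RG6146 replicate 3 for RG6146.

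**Figure D5:**
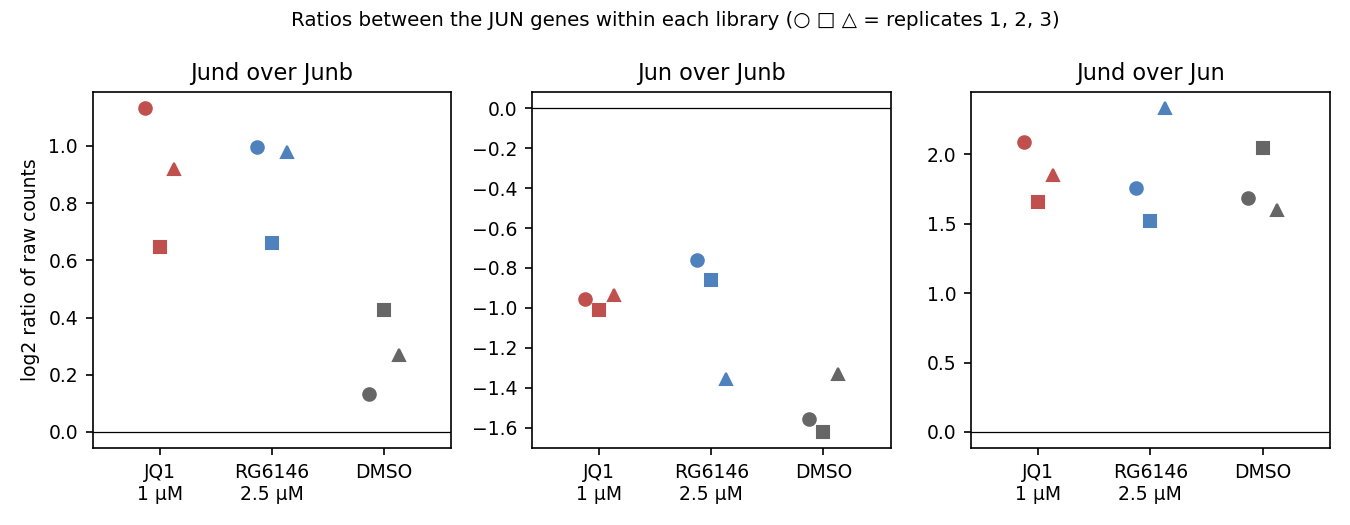
Log2 ratios of raw counts (vertical axis) of Jund to Junb, Jun to Junb and Jund to Jun within each library of the JQ1, RG6146 and DMSO groups. The Jund to Junb ratio of every treated library lies above those of the DMSO libraries, and the Jund to Jun ratios of the 3 groups overlap.

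Myeloid transcripts varied between these libraries, and several AP-1 genes are expressed in myeloid cells. All 15 myeloid markers had counts in at least 1 library, and their sum was 79.5, 264 and 56.2 CPM in the JQ1 libraries and 82.2, 119 and 116 CPM in the RG6146 libraries, against 159, 725 and 367 CPM in the DMSO libraries. The treated libraries were mostly the lower ones, with 1 JQ1 library inside the DMSO range (exact permutation p = 0.2 for JQ1 and 0.1 for RG6146). Most of these counts came from S100a8, S100a9 and Mpo. Csf1r, a marker of macrophages, had mostly more counts in the treated libraries, with 135, 143 and 130 counts in the JQ1 libraries and 153, 89 and 141 counts in the RG6146 libraries, against 113, 81 and 83 counts in the DMSO libraries. Without JQ1 replicate 2, which had the highest myeloid sum of its group, the log2 fold change under JQ1 was 1.50 for Jun, 0.95 for Junb and 1.71 for Jund. Without DMSO replicate 2, which had the highest myeloid sum of all, it was 1.49 for Jun, 1.02 for Junb and 1.71 for Jund under JQ1, and 1.32 for Jun, 0.86 for Junb and 1.55 for Jund under RG6146. The DMSO libraries then left, at 159 and 367 CPM, still had a higher myeloid sum than every RG6146 library. Among the JQ1 libraries, that at 264 CPM lay between them and the others lay below both. The part of the B-cell, T and NK cell, myeloid and stromal markers in the results was not tested.

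Some JUN reads could stem from overlapping genes, since the strand setting of the counting is not given in the sources used here. Jun overlaps the antisense gene Junos, which had 8 counts in all libraries together, and Jund overlaps the antisense gene Gm11175, which had 22. A second, non-coding transcript of Junb reaches into the last exon of Prdx2 on the opposite strand. Prdx2, a peroxide-reducing enzyme, had 3086 counts and log2 fold changes of 0.18 ± 0.10 under JQ1 (adjusted p = 0.194) and 0.19 ± 0.10 under RG6146 (adjusted p = 0.172), which did not pass the test. Without DMSO replicate 3 Prdx2 passed it at 0.28 under JQ1 (adjusted p = 0.0481) and 0.29 under RG6146 (adjusted p = 0.0438), and without any other single library it stayed at 0.11 to 0.20 under JQ1 and 0.12 to 0.22 under RG6146 without passing.

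The genes around AP-1 moved in both directions. Over all tested genes, 13.6% were called higher and 15.4% lower under JQ1, and 12.5% higher and 13.5% lower under RG6146. The counts of each list below stand beside these shares. Among 19 tested genes of other bZIP factors, the wider class to which JUN and FOS belong, 7 were higher and 3 lower under JQ1, and likewise 7 higher and 3 lower under RG6146, with median log2 fold changes of 0.21 under JQ1 and 0.07 under RG6146 beside 0.00 under JQ1 and 0.01 under RG6146 over all tested genes. Atf4, the main factor of the integrated stress response and a dimer partner of JUN proteins, averaged 337 CPM under JQ1 and 324 CPM under RG6146, against 204 CPM under DMSO. Its log2 fold change was 0.72 ± 0.08 under JQ1 (adjusted p = 2.1e-06) and 0.67 ± 0.08 under RG6146 (adjusted p = 5.5e-06). Nfe2l2, which encodes the oxidative stress factor NRF2, rose by 0.68 ± 0.11 under JQ1 and 0.63 ± 0.11 under RG6146 on the log2 scale. Creb1, which encodes the factor bound to the cyclic AMP response element, rose by 0.43 ± 0.07 under JQ1 and 0.46 ± 0.07 under RG6146. Bach2, a B-cell repressor that binds sites like those of AP-1, averaged 204 CPM under JQ1 and 206 CPM under RG6146, against 285 CPM under DMSO, and its log2 fold change was -0.49 ± 0.08 under JQ1 and -0.47 ± 0.08 under RG6146. With ERCC spike-in scaling 5 genes of this list were higher and 0 lower under each compound.

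Of 27 tested genes of the MAP kinase cascade, which passes signals to AP-1, 9 were higher and 2 lower under JQ1, and 7 higher and 1 lower under RG6146, with median log2 fold changes of 0.10 under JQ1 and 0.14 under RG6146. Map2k3, which encodes an activator of the p38 kinases, rose to 171 CPM under JQ1 and 144 CPM under RG6146, against 87.8 CPM under DMSO (log2 fold changes 0.96 ± 0.09 under JQ1 and 0.72 ± 0.09 under RG6146, adjusted p = 3.3e-07 for JQ1 and 9.1e-06 for RG6146). Mapk8, which encodes the c-Jun kinase JNK1, was at 47.2 CPM under JQ1 and 45.7 CPM under RG6146, against 28.1 CPM under DMSO (log2 fold changes 0.75 ± 0.11 under JQ1 and 0.71 ± 0.11 under RG6146, adjusted p = 7.3e-05 for JQ1 and 1.6e-04 for RG6146). Map2k1 and Map2k2, which encode the ERK activators MEK1 and MEK2, were also higher, with log2 fold changes of 0.85 for Map2k1 and 0.60 for Map2k2 under JQ1, and of 0.88 for Map2k1 and 0.43 for Map2k2 under RG6146. With scaling by library size alone the split of this list under JQ1 was 6 higher and 6 lower, with ERCC scaling it was 5 and 2, and with DESeq2 it was 5 and 1. Under RG6146 ERCC scaling gave 3 higher and 0 lower, and leaving out 1 library gave 6 to 8 higher and 0 to 2 lower.

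Among 16 tested genes of factors and coactivators known to act on JUN and FOS promoters, 1 was higher and 6 lower under JQ1, and 1 higher and 5 lower under RG6146, with median log2 fold changes of -0.15 under JQ1 and -0.13 under RG6146. Srf, which encodes the serum response factor, averaged 138 CPM under JQ1 and 122 CPM under RG6146, against 71.8 CPM under DMSO (log2 fold changes 0.94 ± 0.13 under JQ1 and 0.76 ± 0.13 under RG6146, adjusted p = 8.8e-05 for JQ1 and 5.4e-04 for RG6146). Mef2c, which encodes a factor that binds MEF2 sites such as the one in the Jun window above, averaged 56.5 CPM under JQ1 and 59.1 CPM under RG6146, against 141 CPM under DMSO (log2 fold changes -1.32 ± 0.09 under JQ1 and -1.25 ± 0.09 under RG6146, adjusted p = 1.0e-08 for JQ1 and 2.0e-08 for RG6146). Elk3, a partner of the serum response factor, was at 3.97 CPM under JQ1 and 4.25 CPM under RG6146, against 11.7 CPM under DMSO (log2 fold changes -1.56 ± 0.26 under JQ1 and -1.45 ± 0.26 under RG6146). The coactivator gene Crebbp fell with log2 fold changes of -0.48 under JQ1 and -0.29 under RG6146, and Sp1, a factor of GC-rich promoters, with -0.34 under JQ1 and -0.30 under RG6146. Under RG6146 the call of Crebbp was lost without RG6146 replicate 1 (-0.26) or DMSO replicate 1 (-0.25), and that of Sp1 without RG6146 replicate 2 (-0.26). With ERCC scaling 2 of this list were lower under each compound, and under RG6146 3 were lower when RG6146 replicate 1 or 2 or DMSO replicate 1 was left out. Without DMSO replicate 3, 3 were higher under JQ1 and 2 under RG6146.

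Of the 18 regulators of AP-1 protein and mRNA turnover, all tested, 2 were higher and 4 lower under each compound (median log2 fold changes -0.05 under JQ1 and 0.05 under RG6146). Calls in either direction took 28.9% of all tested genes under JQ1 and 26% under RG6146. Trib1 and Trib2 encode pseudokinases that bring substrates to the ubiquitin ligase COP1. Trib1 averaged 13.4 CPM under JQ1 and 16.6 CPM under RG6146, against 38.2 CPM under DMSO (log2 fold changes -1.49 ± 0.18 under JQ1 and -1.20 ± 0.18 under RG6146, adjusted p = 1.4e-05 for JQ1 and 1.1e-04 for RG6146). Trib2 averaged 2.82 CPM under JQ1 and 2.12 CPM under RG6146, against 11.5 CPM under DMSO (log2 fold changes -2.01 ± 0.31 under JQ1 and -2.44 ± 0.33 under RG6146, adjusted p = 1.2e-04 for JQ1 and 3.1e-05 for RG6146). Zfp36l2, whose protein speeds the decay of AU-rich mRNAs, rose by 0.69 under JQ1 and 0.59 under RG6146 on the log2 scale, and Hnrnpd, which encodes the AU-rich element binding protein AUF1, fell with log2 fold changes of -0.56 under JQ1 and -0.43 under RG6146. With ERCC scaling 1 gene of this list was higher and 3 were lower under each compound.

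The 13 tested genes of factors that share composite DNA sites with AP-1 had 2 higher and 3 lower under JQ1 and 2 higher and 2 lower under RG6146 (median log2 fold changes 0.09 under JQ1 and -0.02 under RG6146). These stand beside 28.9% of all tested genes called under JQ1 and 26% under RG6146. Irf4, the B-cell factor that binds beside BATF and JUN, averaged 42.6 CPM under JQ1 and 41.3 CPM under RG6146, against 88.7 CPM under DMSO (log2 fold changes -1.06 ± 0.13 under JQ1 and -1.10 ± 0.13 under RG6146, adjusted p = 1.8e-05 for JQ1 and 1.4e-05 for RG6146). Ets1, a lymphoid factor, fell with log2 fold changes of -0.58 under JQ1 and -0.52 under RG6146, and Runx1, a factor of blood cell development, with -0.93 under JQ1 (adjusted p = 0.00794), while its value under RG6146 was -0.37 (adjusted p = 0.265). The higher genes were Nfat5, with 0.59 under JQ1 and 0.54 under RG6146 (adjusted p = 0.0118 for JQ1 and 0.0229 for RG6146), and Ets2, with 0.36 under JQ1 and 0.35 under RG6146 (adjusted p = 0.0142 for JQ1 and 0.0168 for RG6146). Under JQ1 the call of Nfat5 was lost without JQ1 replicate 3 (0.48) or DMSO replicate 2 (0.49), and under RG6146 without RG6146 replicate 1 (0.55), RG6146 replicate 2 (0.39) or DMSO replicate 2 (0.43). That of Ets2 under RG6146 was lost without RG6146 replicate 2 (0.34), RG6146 replicate 3 (0.28) or DMSO replicate 3 (0.34). No gene of this list was higher with library size or ERCC scaling under either compound, and none was higher under RG6146 without RG6146 replicate 2. DESeq2 called 1 higher under JQ1 and 0 under RG6146, with the call of Ets2 lost under both and that of Nfat5 under RG6146. Leaving out any other single library gave 1 to 3 higher under JQ1 and 1 or 2 under RG6146.

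Of 25 textbook AP-1 target genes, only 10 had enough counts to test, and 2 were higher and 1 lower under each compound (median log2 fold changes 0.21 under JQ1 and -0.08 under RG6146). The share called among all tested genes was 28.9% under JQ1 and 26% under RG6146. Gclc, which encodes the catalytic subunit of the first enzyme of glutathione synthesis, averaged 146 CPM under JQ1 and 135 CPM under RG6146, against 89.0 CPM under DMSO (log2 fold changes 0.72 ± 0.08 under JQ1 and 0.60 ± 0.08 under RG6146, adjusted p = 3.5e-06 for JQ1 and 2.9e-05 for RG6146). Ccnd1, which encodes cyclin D1, averaged 167 CPM under JQ1 and 161 CPM under RG6146, against 244 CPM under DMSO (log2 fold changes -0.55 ± 0.08 under JQ1 and -0.60 ± 0.08 under RG6146). Vegfa, which encodes a vascular growth factor, passed narrowly at 0.47 under both compounds (adjusted p = 0.0469 for JQ1 and 0.0499 for RG6146), and its call was lost in 11 of 18 alternatives in each comparison. Of these, 6 left out 1 library (JQ1 or RG6146 replicate 1 or 3, or DMSO replicate 2 or 3), with values of 0.36 to 0.47. Dusp1, which encodes a phosphatase that switches off MAP kinases, had a log2 fold change of 0.64 under JQ1 (adjusted p = 0.146), and Mt1, a metallothionein gene, one of -0.38 under JQ1 (adjusted p = 0.531) and -0.92 under RG6146 (adjusted p = 0.150). The call of Mt1 turned on the setting: under RG6146 it was not called in 11 of 18 alternatives and was called in the others, which included leaving out JQ1 replicate 2 or 3 (both -0.91), and under JQ1 it was called without JQ1 replicate 2 (-0.93).

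Over the 6 lists, 42 of 103 tested genes were called under JQ1 (23 higher, 19 lower) and 37 under RG6146 (21 higher, 16 lower). These are 40.8% under JQ1 and 35.9% under RG6146, beside 28.9% under JQ1 and 26% under RG6146 of all tested genes. The lists were chosen with earlier results of these data known and no set test was made, so these shares are a description only. In the comparison of RG6146 with JQ1 none of the listed genes was called by edgeR or by DESeq2. Of the 103 tested, 5 (4.85%) had an unadjusted p under 0.05 in edgeR, beside 3.88% of all tested genes. With ERCC scaling 22 were called under JQ1 and 18 under RG6146, and with ERCC scaling and the replicate block 39 under JQ1 and 35 under RG6146. Among the genes named above, the calls of Bach2, Creb1, Crebbp, Sp1, Hnrnpd, Ets1, Ets2, Nfat5, Ccnd1 and Vegfa then ended under both compounds, and that of Map2k2 ended under RG6146. The log2 fold changes of these 21 calls moved by 0.010 to 0.071, and with the replicate block beside ERCC scaling only those of Crebbp and Sp1 under RG6146 were lost.

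The pattern of each tested member over the 9 libraries was set beside the genes that averaged 10 CPM or more, by Pearson's r of log2 CPM, as a description. The treated libraries stood apart from DMSO for many genes, and high correlations were common. Jun was most like Mknk2 (r = 0.991), Chka (0.991) and Tomm20 (0.986), and 509 of 7410 genes had an r over 0.9 with it. Junb was most like Faap100 (0.988), Pik3c2a (0.982) and Adpgk (0.981), with 391 genes over 0.9. Jund was most like Paf1, Glg1 and Fam126a (0.995 each), with 595 genes over 0.9. Fosl2 was most like Selenoh (0.939), Erlec1 (0.909) and Jpt2 (0.904), with 4 of 7411 genes over 0.9. With only 4 to 16 raw counts of Fosl2 in a library, its pattern holds much counting noise, and these likenesses were not tested.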

How the data were processed

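The values deposited by the authors are raw read counts for each gene. Per the labels' protocols, QuantSeq 3′ libraries were made from 500 ng of RNA and sequenced as single-end reads of 75 bases. The submitters' processing notes name HISAT2 2.1.0, cutadapt 1.7, featureCounts (Subread), bcl2fastq 2.17.1.14, limma and FastQC 0.11.5, with build mm10; the strand setting is not given in the sources used here. The 92 ERCC spike-in rows entered neither the library sizes nor the tests. In R 4.3.3 with edgeR 4.0.16, filterByExpr (minimum count 10) kept 11002 genes, libraries were scaled by TMM, and a robust quasi-likelihood model with the group as its only term was fitted to all 9 libraries. Adjusted p-values are Benjamini-Hochberg values over all tested genes, with calls below 0.05. Fold changes carry no prior count, and errors after them are standard errors. Marker sums are CPM without TMM. Low-count intervals are exact Poisson intervals and cover counting error only. DESeq2 1.42.0 and other settings were alternatives. Libraries of 1 group were further apart than counting noise allows (chi-square per degree of freedom 6.81 to 16.9). Named genes were the members, up to 4 genes per list with the smallest p in each comparison with DMSO, the 3 most like each tested member, and Hexim1; single-gene values of the overlapping Prdx2 were added. The members and lists were chosen with earlier results of these data known. Of 198 listed symbols 195 were found, the other 3 being older names of listed genes.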

Additional observations from a re-analysis of the deposited data

How the results depend on the processing

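The 3 JUN genes kept their call and direction in both comparisons with DMSO under all 18 alternatives, which included 9 that left out 1 library each, and 3 members were called in each. The log2 fold change lay at 1.55 to 1.71 (Jund), 1.45 to 1.67 (Jun) and 0.93 to 1.15 (Junb) under JQ1, and at 1.38 to 1.62, 1.30 to 1.50 and 0.80 to 1.01 under RG6146. Fosl2 was never called and changed sign: leaving out 1 library gave -0.62 to 0.18 under JQ1, -0.26 to 0.34 under RG6146 and -0.15 to 0.64 for RG6146 against JQ1, and library size scaling gave -0.094 under RG6146; the cause was not tested. ERCC scaling gave 22 called genes over the lists under JQ1 and 18 under RG6146, and 1339 and 1274 over all genes; with ERCC scaling and the replicate block these counts were 39 and 35 over the lists, and 2757 and 2606 over all genes. RG6146 against JQ1, with 1 called gene, gave 6 with ERCC scaling, 17 without the filter, 0 to 2 without 1 library, and 0 with the replicate block, with ERCC scaling and the block, without robust moderation and with only the 6 libraries compared. Library size scaling gave 913 higher and 2444 lower genes under JQ1 (chosen scaling 1495 and 1689) and 879 and 2077 under RG6146 (1374 and 1489); it moved the median of all genes to -0.13 and -0.10. DESeq2 called 1101 higher and 1098 lower genes under JQ1. Of 51 calls of single named genes that are no members, with Hexim1 included, ERCC scaling ended 21 (2 with the block), library size scaling 6 and DESeq2 5. Over genes, same-numbered replicates did not deviate together (r of -0.08 to 0.10), and the chosen fit had no replicate block. The ERCC share of counts did follow the replicate number. From replicate 1 to 3 it was 1.37, 1.22 and 0.96% under JQ1, 1.35, 1.17 and 0.97% under RG6146, and 1.51, 1.18 and 1.13% under DMSO. Whether same-numbered libraries shared a handling step was not tested. With the replicate block 3092 genes were called under JQ1 and 2789 under RG6146, and 3 members in each. Depth limits the FOS and BATF genes, which had at most 16 counts in a library.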

Other observations

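Jun and Jund have 1 exon in every transcript, while Junb also has a non-coding transcript of 2 exons and falls outside that class. Genes with 1 exon in every transcript were compared with multi-exon genes, a split chosen after the values were seen and given as a description. Under JQ1 33 of 217 tested single-exon genes were called higher (15.2%), against 1345 of 8944 multi-exon genes (15%), and 21 of 168 (12.5%) with the histone genes left out. Lower calls under JQ1 numbered 16 of 217 single-exon genes (7.37%), against 1541 of 8944 multi-exon genes (17.2%), and 16 of 168 (9.52%) without histone genes. Under RG6146 31 of 217 single-exon genes were called higher (14.3%), against 1238 of 8944 multi-exon genes (13.8%), and 20 of 168 (11.9%) without histone genes. Lower calls under RG6146 numbered 16 of 217 single-exon genes (7.37%), against 1354 of 8944 multi-exon genes (15.1%), and 16 of 168 (9.52%) without histone genes.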
